A study of Mus musculus with 24 samples.

Results

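Most carriers of the SLC25 family sit in the inner mitochondrial membrane, a few in other membranes such as that of peroxisomes, and they exchange metabolites, nucleotides, phosphate, protons, amino acids, cofactors and metal ions between the cytosol and the matrix. They are encoded in the nucleus and translated on cytosolic ribosomes, so that ribosome footprints report on their synthesis relative to that of other proteins. ADP/ATP carriers and the phosphate carrier feed ATP synthesis, and other members supply the TCA cycle and the malate-aspartate shuttle. Members were taken by name: every row of the count tables whose gene symbol is Slc25a followed by a number and nothing else. This gave 38 of the 12759 transcripts listed, each the canonical transcript of its gene. The members were chosen by gene symbol and not by their values, but the family was selected on results of these data, among them a large decrease in the translational efficiency (TE) of Slc25a30 with Torin1 in ctrl cells. The values of Slc25a30 in that comparison are therefore given as a description, without a p-value. Its calls there enter the counts of the family, where they are marked, and are not taken as support.

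The cells were N2a, a mouse neuroblastoma line. KO cells had been transfected with CRISPR/Cas9 guides against Eif4e3, which encodes a cap-binding protein of the eIF4E family, and ctrl cells, labelled WT, with empty vector, both as antibiotic-selected cell populations. Both genotypes were treated for 2 h with Torin1 at 250 nM, which inhibits mTOR, or with the DMSO vehicle. The 4 conditions were profiled by RNA-seq (mRNA, 12 libraries) and by ribo-seq (footprints, 11 libraries), each replicate being another passage of the cells. Values are CPM, the count scaled to library size with TMM factors. They are relative to the other transcripts of the assay, so that a change in total translation does not show in them. Here n is 3 libraries per condition, and n is 2 for footprints of ctrl cells in DMSO. TE relates the footprints of a transcript to its mRNA. A call is an edgeR quasi-likelihood p under 0.05 after adjustment over all transcripts tested.

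Eif4e3 was lower in KO cells, with 2.89 to 5.04 CPM of mRNA in the 6 KO libraries against 12.0 to 18.2 in the 6 ctrl libraries. In DMSO the log2 difference was -2.05 (SE 0.242, edgeR adjusted p = 0.0312). RNA-seq libraries held 17048192 to 28911595 counts and ribo-seq libraries 669244 to 5285876, the lowest being ctrl DMSO replicate 3. Hand2, a transcription factor of sympathoadrenal cells, was at 194 to 242 CPM in the 12 RNA-seq libraries, and the macrophage marker Cd68 at 1.30 to 4.07. In these cell populations, a change per cell and a change in the share of cells cannot be told apart.

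mTOR inhibition is known above all for its effect on mRNAs with a 5′ terminal oligopyrimidine (TOP) tract, a C at the cap followed by further pyrimidines. The 5′ ends below are shown to let this feature be read for the carrier with the largest TE decrease in KO cells, for the most abundant carriers and for a close relative that was not called. Slc25a30 had that decrease, and Slc25a14 is the member closest to it in CDS sequence (64.6% identity). Slc25a4 had the most mRNA, and Slc25a5 is the member closest to Slc25a4 (77.5% identity). Slc25a3 was added after its values were seen. Capitals mark the transcribed bases from the first base of the RefSeq transcript on GRCm38.
Slc25a30 (chr14:75787023-75787052, minus strand): gcgggcggagccgttCCCGGCTTGGGCCGC
Slc25a14 (chrX:48623563-48623592, plus strand): cgaagcctgcaggaaGGCGGGTGGCTAGCT
Slc25a4 (chr8:46211048-46211077, minus strand): gcgagacgccgagccGGGGATATAAGGAGG
Slc25a5 (chrX:36795582-36795611, plus strand): cccgccccttacgccGGCAGCTCACCGCCT
Slc25a3 (chr10:91123953-91123982, minus strand): gggaggacattcggcCTCTGTGAGCCGCAA
Slc25a30 began with 3 pyrimidines and Slc25a3 with 4, while Slc25a4, Slc25a5 and Slc25a14 began with G. A C and at least 4 further pyrimidines on the transcribed strand opened 2.42% of the 12835 RefSeq starts of listed genes, and 3.08% of the genes with an entry had at least 1 such start. Among the 39 starts of the 29 members with an entry, 2 were of this kind, Slc25a45, which was called in no comparison, and an alternative start of Slc25a21, which was too low to be tested. The RefSeq start lay 0 nt from that of the tabulated transcript for Slc25a30, but 92 nt from it for Slc25a3, 54 nt for Slc25a5 and 222 nt for Slc25a4, so that the capped base in these cells is not settled by the annotation.

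In the matched annotation the members had short coding sequences, with a median of 954 nt (range 639 to 2034) against 1359 nt for all listed transcripts. Their 5′ transcript leaders (5′ TL) had a median of 193 nt against 171 nt. An ATG upstream of the start codon was present in 22 of 38 members, against 51.3% of all transcripts. The Slc25a30 transcript lies on chromosome 14 from 75760117 to 75787037, with 10 exons, a 5′ TL of 180 nt that holds 1 upstream ATG, and a CDS of 876 nt. Slc25a4 lies on chromosome 8 from 46206797 to 46211284, with 4 exons, a 5′ TL of 362 nt with 4 upstream ATGs and a CDS of 897 nt. No member shared a stretch of 28 nt, about a footprint length, with another member. Whether shorter or mismatched reads were split within the family was not tested.

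The level of the carriers in ctrl cells with DMSO spanned about 4 orders of magnitude per length of CDS. Slc25a4, an ADP/ATP carrier, was at 2227 ± 198 CPM per kb of mRNA (SD, n = 3), which was 40.8% of the sum over the 38 members. Slc25a3, the phosphate carrier, followed at 874 ± 75.3 CPM per kb. Slc25a5, the other ADP/ATP carrier, was at 639 ± 72.1 CPM per kb and Slc25a39, a carrier required for mitochondrial glutathione, at 592 ± 96.9, a difference within their spread. Slc25a1, the citrate carrier, was at 209 ± 27.5 and Slc25a33, a pyrimidine nucleotide carrier, at 162 ± 17.8 CPM per kb. The lowest were Slc25a42 at 0.778 ± 0.323, Slc25a35 at 0.213 ± 0.0483 and Slc25a21 at 0.196 ± 0.0559 CPM per kb. These 3 passed the filter on low values in no comparison. Slc25a47 was tested for mRNA only, and 34 members could be tested for footprints in at least 1 comparison.

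**Figure D1:**
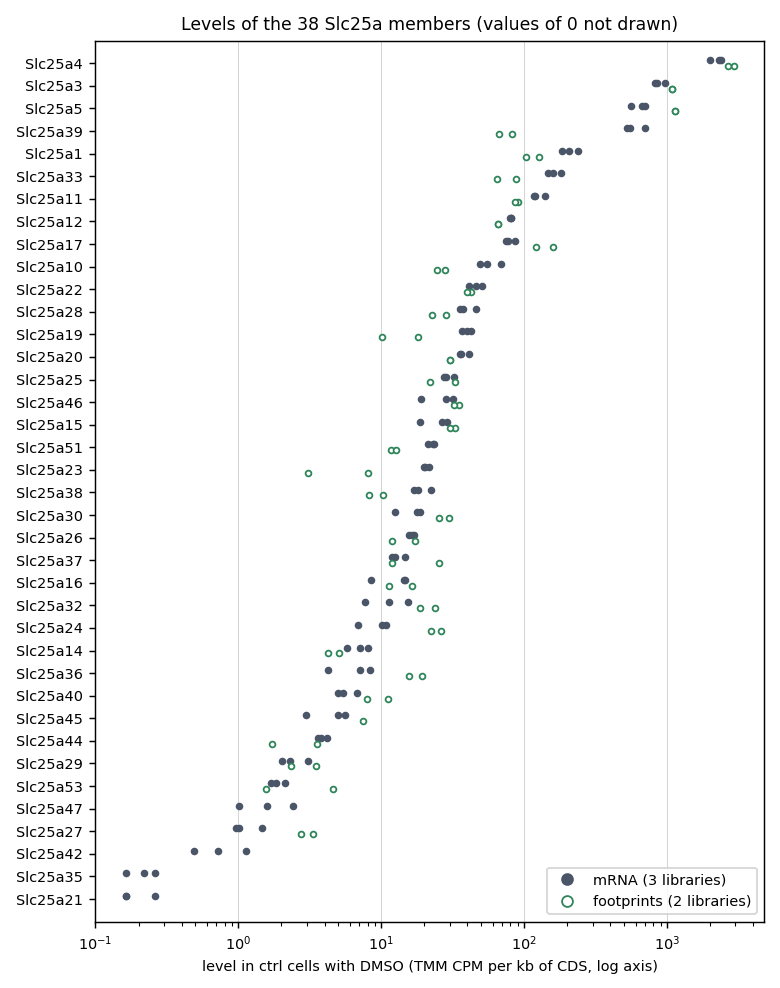
Level of the 38 carriers in ctrl cells with DMSO, as TMM CPM per kb of CDS on a log axis. Filled points are the 3 RNA-seq libraries and open points the 2 ribo-seq libraries. Slc25a4, Slc25a3 and Slc25a5 lead in both assays, and Slc25a39 has far fewer footprints than its mRNA rank.

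Footprints followed the same top 3, with Slc25a4 at 2793 ± 192 CPM per kb (SD, n = 2), Slc25a5 at 1129 ± 5.84 and Slc25a3 at 1072 ± 2.33. Slc25a39, 4th by mRNA, was 8th by footprints at 74.0 ± 11.4 CPM per kb. Its TE was 0.125 in ctrl cells and 0.130 in KO cells with DMSO, the lowest of the 34 members listed in ribo-seq in ctrl cells and next to lowest in KO cells. The lowest in KO cells was Slc25a23, an ATP-Mg/phosphate carrier, at 0.0848, from 5, 20 and 6 footprint counts. The highest TE in both was that of Slc25a36, a pyrimidine nucleotide carrier, at 2.65 in ctrl and 2.21 in KO cells, from 75 and 9 footprint counts in ctrl cells. Close to it were Slc25a27 at 2.64 and Slc25a24 at 2.62 in ctrl cells. In KO cells Slc25a53 at 2.21 and Slc25a40 at 2.17 were close, so that the first rank is not resolved. These ratios are scaled within each assay and carry no error of their own.

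Torin1 lowered the footprints of the 3 most translated carriers in both genotypes. In ctrl cells Slc25a4 footprints were at 2627 and 2383 CPM in DMSO and at 854, 755 and 828 CPM with Torin1. In KO cells they were at 2341, 2145 and 2327 CPM in DMSO and at 794, 693 and 753 CPM with Torin1. The groups did not overlap in either genotype, and the log2 fold change was -1.63 (SE 0.134, edgeR adjusted p = 5.57e-08) in ctrl and -1.62 (SE 0.105, edgeR adjusted p = 1.86e-14) in KO cells. Its mRNA fell less than its footprints, with -0.30 (adjusted p = 0.164) in ctrl and -0.17 (adjusted p = 0.130) in KO cells, neither called. The TE of Slc25a4 fell by 1.33 on the log2 scale in ctrl cells (SE 0.169, edgeR adjusted p = 2.04e-05) and by 1.46 in KO cells (SE 0.118, edgeR adjusted p = 4.56e-10).

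Slc25a5 and Slc25a3 also fell in both genotypes. Slc25a5 footprints were at 1016 and 1009 CPM in ctrl cells with DMSO and at 442, 457 and 476 CPM with Torin1, and at 979, 1023 and 1221 against 431, 433 and 444 CPM in KO cells. Its TE fell by 1.02 on the log2 scale in ctrl (SE 0.169, edgeR adjusted p = 0.000433) and by 1.26 in KO cells (SE 0.122, edgeR adjusted p = 1.06e-08). Slc25a3 footprints went from 1153 and 1149.5 CPM to 558, 508 and 499 CPM in ctrl cells, and from 1010, 961 and 1029 CPM to 417, 419 and 419 CPM in KO cells. No library with Torin1 reached the lowest DMSO library of its genotype for either carrier. The TE of Slc25a3 fell by 0.90 in ctrl (SE 0.165, edgeR adjusted p = 0.00131) and by 1.20 in KO cells (SE 0.113, edgeR adjusted p = 7.15e-09). Summed over these 3 carriers, footprints with Torin1 were 38.4% of those in DMSO in ctrl and 36.8% in KO cells. The sum over all other members was 84.8% and 78.6%. These percentages are relative to the other transcripts, and total translation was not measured here. In the paper's polysome profiles, heavy polysomes fell with Torin1 in both genotypes.

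**Figure D2:**
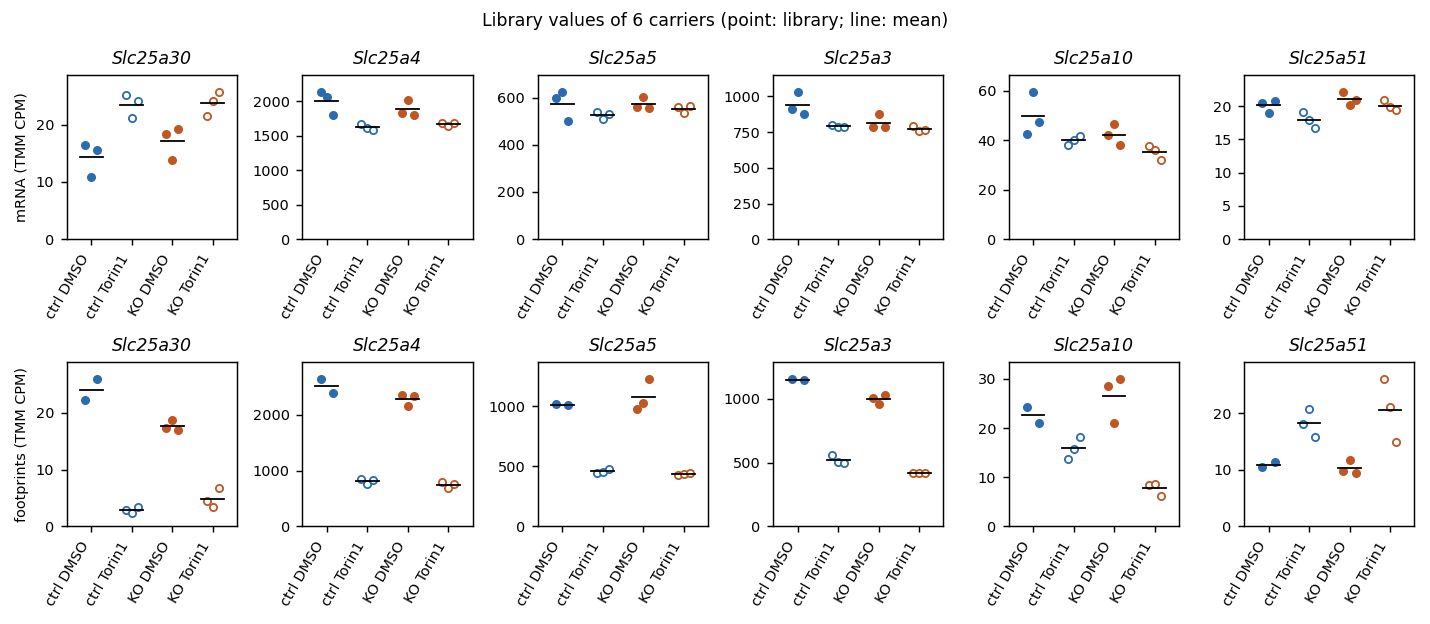
mRNA (top) and footprints (bottom) of 6 carriers, each point 1 library in TMM CPM and each line the mean of a condition, with vertical axes from 0. With Torin1 the footprints of Slc25a30, Slc25a4, Slc25a5 and Slc25a3 lie below every DMSO library of the same genotype, while those of Slc25a51 lie above.

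Slc25a30, a relative of the uncoupling proteins that is also called kidney mitochondrial carrier protein 1, moved in opposite directions in the assays. In KO cells its mRNA was at 18.3, 13.9 and 19.3 CPM in DMSO and at 21.6, 24.1 and 25.7 CPM with Torin1. Its footprints went the other way, from 17.4, 18.8 and 17.0 CPM (44, 90 and 49 counts) to 4.41, 3.35 and 6.86 CPM (10, 7 and 12 counts). Neither pair of groups overlapped. In KO cells the log2 fold change was +0.47 for mRNA (SE 0.129, edgeR adjusted p = 0.0416), -1.91 for footprints (SE 0.299, edgeR adjusted p = 4.21e-06) and -2.39 for TE (SE 0.310, 95% CI -3.03 to -1.75, edgeR adjusted p = 1.64e-06), a TE 5.25-fold lower. The mRNA call was lost without KO DMSO replicate 1 and without each of the 3 KO Torin1 replicates (adjusted p up to 0.159 over the alternatives), whereas the TE call was kept in all 12 fits that left out a library.

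In ctrl cells Slc25a30 mRNA was at 16.4, 10.9 and 15.6 CPM in DMSO and at 25.2, 21.1 and 24.2 CPM with Torin1. Footprints were at 22.3 and 25.9 CPM in DMSO (93 and 16 counts) and at 2.89, 2.31 and 3.41 CPM with Torin1 (4, 5 and 6 counts). The log2 fold change was +0.72 (SE 0.172) for mRNA, -3.01 (SE 0.381) for footprints and -3.75 (SE 0.398) for TE, and these are the values with which the family was taken up. The change of TE was thus -3.75 in ctrl and -2.39 in KO cells, and no test of that difference is given because the ctrl value led to the choice of the family. Slc25a14, its closest relative, had few footprints (3 to 42 counts per library). The TE change of Slc25a14 was +0.89 (95% CI -0.10 to 1.88) in ctrl and +0.40 (95% CI -0.30 to 1.10) in KO cells, not called in either. Slc25a27, the other uncoupling protein-like member, passed the filter on footprints only through ctrl libraries. It had 1 to 11 footprint counts per library over the whole study, too few to place its TE.

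The 3 carboxylate carriers were called lower in footprints with Torin1 in KO cells, where 22.1% of all transcripts were called lower, and none was called in ctrl cells, where 9.93% were. All 3 had a footprint change below 0 in ctrl cells as well. The genotype by Torin1 interaction called none of the 3 in footprints or TE, so a difference between the genotypes is not shown. Slc25a10, the dicarboxylate carrier, had footprints of 28.4, 20.9 and 29.9 CPM in KO cells with DMSO and 8.37, 8.62 and 6.29 CPM with Torin1, a fall with no overlap. In ctrl cells they were at 24.2 and 21.1 CPM in DMSO and at 13.7, 15.7 and 18.2 CPM with Torin1. The TE of Slc25a10 fell by 1.48 on the log2 scale in KO cells (SE 0.261, edgeR adjusted p = 0.000121), and its change in ctrl cells was -0.24 (95% CI -0.85 to 0.37, adjusted p = 0.748). The difference between these changes was -1.21 (SE 0.380, 95% CI -1.99 to -0.43), with an unadjusted p of 0.00352 and an edgeR adjusted p of 0.574. Slc25a1 fell by 0.87 in footprints (SE 0.142, edgeR adjusted p = 8.52e-06) and by 0.57 in TE (SE 0.165, edgeR adjusted p = 0.0112) in KO cells. The TE call of Slc25a1 was lost with library sizes alone (edgeR adjusted p = 0.116). Its footprints were -0.55 in ctrl cells (95% CI -0.95 to -0.16, adjusted p = 0.0525). Slc25a11, the oxoglutarate/malate carrier, fell by 0.54 in footprints in KO cells (SE 0.151, edgeR adjusted p = 0.00457). That call was lost with library sizes alone (edgeR adjusted p = 0.112). Mean footprints of Slc25a11 in ctrl cells went from 83.1 to 70.7 CPM. Its TE in KO cells was -0.42 (adjusted p = 0.0627), and the block on passage brought that value under the threshold (adjusted p = 0.0265).

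Slc25a12, the aspartate/glutamate carrier of the malate-aspartate shuttle, had footprints of 143, 122 and 138 CPM in KO cells with DMSO and 75.8, 78.6 and 76.0 CPM with Torin1. Its TE fell by 0.77 in KO cells (SE 0.132, edgeR adjusted p = 8.53e-05), against -0.29 in ctrl cells (95% CI -0.66 to 0.08, adjusted p = 0.457). In ctrl cells its footprints were -0.40 (adjusted p = 0.0876), which the block on passage brought under the threshold (adjusted p = 0.0429). Slc25a17, the peroxisomal carrier of CoA and other nucleotide cofactors, fell in footprints in both genotypes, by 0.62 in ctrl (SE 0.168, edgeR adjusted p = 0.0182) and by 0.71 in KO cells (SE 0.134, edgeR adjusted p = 6.57e-05). The ctrl call was lost without ctrl Torin1 replicate 2 or 3 and with library sizes alone. Its TE fell by 0.74 in KO cells (SE 0.147, edgeR adjusted p = 0.000420) and was -0.59 in ctrl cells (adjusted p = 0.116). Slc25a20, the carnitine/acylcarnitine carrier, fell by 0.57 in footprints in KO cells (SE 0.216, edgeR adjusted p = 0.0338). That call was lost without KO DMSO replicate 3 or KO Torin1 replicate 2, with DESeq2 and with library sizes alone. Mean footprints of Slc25a20 went from 25.1 to 17.1 CPM in KO cells. In ctrl cells they went from 27.5 to 18.7 CPM, not called.

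Slc25a51, the NAD+ carrier, was the only member called upwards in footprints or TE. Its footprints were at 9.88, 11.7 and 9.37 CPM in KO cells with DMSO and at 26.0, 21.1 and 14.9 CPM with Torin1. In ctrl cells they were at 10.5 and 11.3 CPM (44 and 7 counts) and at 18.1, 20.8 and 15.9 CPM. Every Torin1 library was above every DMSO library of its genotype. The TE rose by 1.05 on the log2 scale in KO cells (SE 0.243, edgeR adjusted p = 0.00198), and was +0.95 in ctrl cells (95% CI 0.32 to 1.57, adjusted p = 0.0787). Its mRNA was at 17.9 to 21.0 CPM in the mean of each condition.

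**Figure D3:**
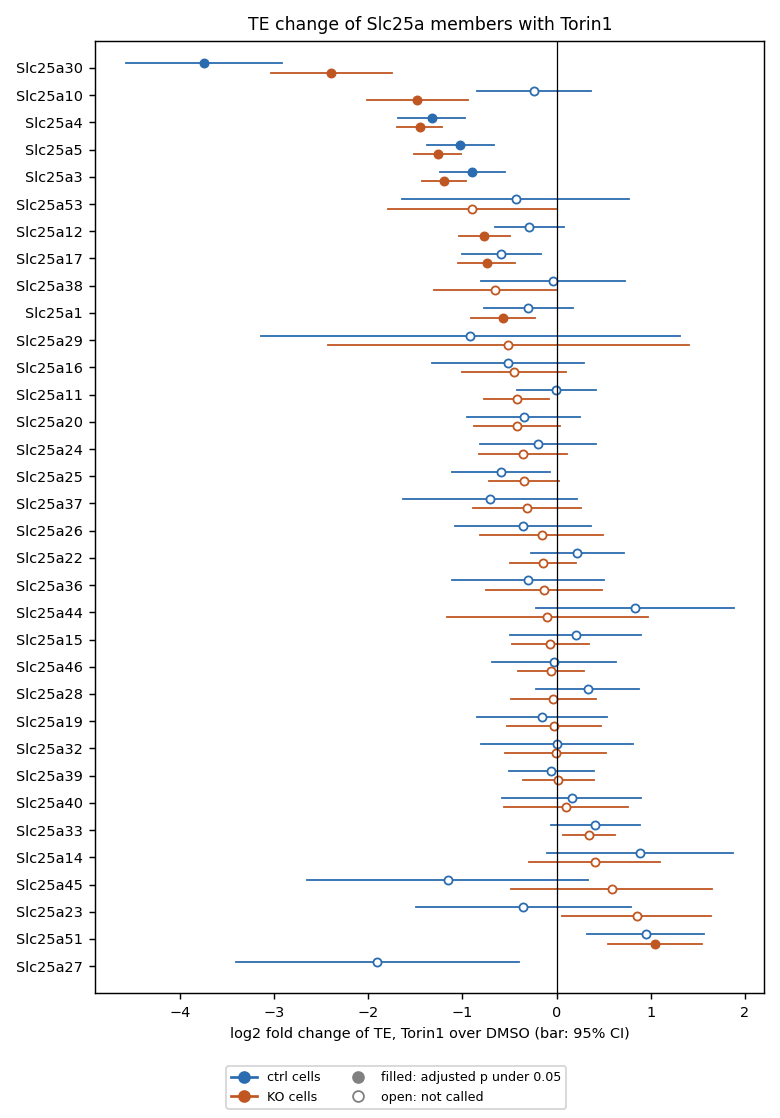
log2 fold change of TE with Torin1 for each carrier tested, in ctrl and in KO cells. Bars are 95% confidence intervals, filled points are calls, and genes are ordered by the change in KO cells. The calls are 4 decreases in ctrl cells, among them Slc25a30, on whose ctrl values the family was selected, and 8 decreases and 1 increase in KO cells.

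Over the family, 5 of 34 members were called in footprints with Torin1 in ctrl cells, all lower (Slc25a4, Slc25a5, Slc25a3, Slc25a30 and Slc25a17), against 15.6% of all transcripts called and 9.93% called lower. In KO cells 11 of 33 were called, 10 lower and 1 higher, against 40.6% of all transcripts called, 22.1% lower and 18.5% higher. For TE, 4 of 34 were called in ctrl cells, all lower, against 4.68% of all transcripts called and 4.29% called lower. In KO cells 9 of 33 were called, 8 lower and 1 higher, against 28.4% called, 17.8% lower and 10.6% higher. The ctrl counts include Slc25a30, on whose values the family was selected, and the total in KO cells is no higher than the background. Slc25a33, a pyrimidine nucleotide carrier, was at +0.35 in TE in KO cells (adjusted p = 0.0554), and the block on passage brought it under the threshold (adjusted p = 0.0477). With scaling by library size alone the calls were 4 lower and 1 higher for footprints and for TE in ctrl, and 7 lower and 3 higher for TE and 8 lower and 3 higher for footprints in KO cells.

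The median log2 TE change of the members was -0.29 in ctrl and -0.31 in KO cells, against -0.01 for all transcripts in both. Scaling by library size alone moved the median of all transcripts by 0.17 in ctrl and by 0.25 in KO cells, while the members' median less that of all transcripts was -0.28 and -0.30 under both scalings. The ctrl median was -0.01 without ctrl DMSO ribo-seq replicate 1, and the KO median was -0.16 without KO Torin1 ribo-seq replicate 2 and -0.48 without replicate 1. The TE change was below 0 in 25 of 34 members in ctrl and in 26 of 33 in KO cells, and 25 of the 33 tested in both had the same sign in each. Across the 33 members, the TE change in ctrl and in KO cells had Pearson's r of 0.711 and Spearman's rho of 0.593. The rank correlation of TE change with 5′ TL length was 0.203 across 34 members in ctrl and 0.340 across 33 in KO cells. These correlations are across genes, which are not independent replicates. The counts of signs and the correlations include Slc25a30, on whose ctrl TE change the family was selected. They also include Slc25a29, which passed the filter on footprints only through its DMSO libraries, and Slc25a45, which passed it only through its Torin1 libraries. The values across 34 members in ctrl cells, the ctrl median among them, include Slc25a27 as well. Its mRNA there passed the filter only through its Torin1 libraries and so had to be higher with Torin1.

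**Figure D4:**
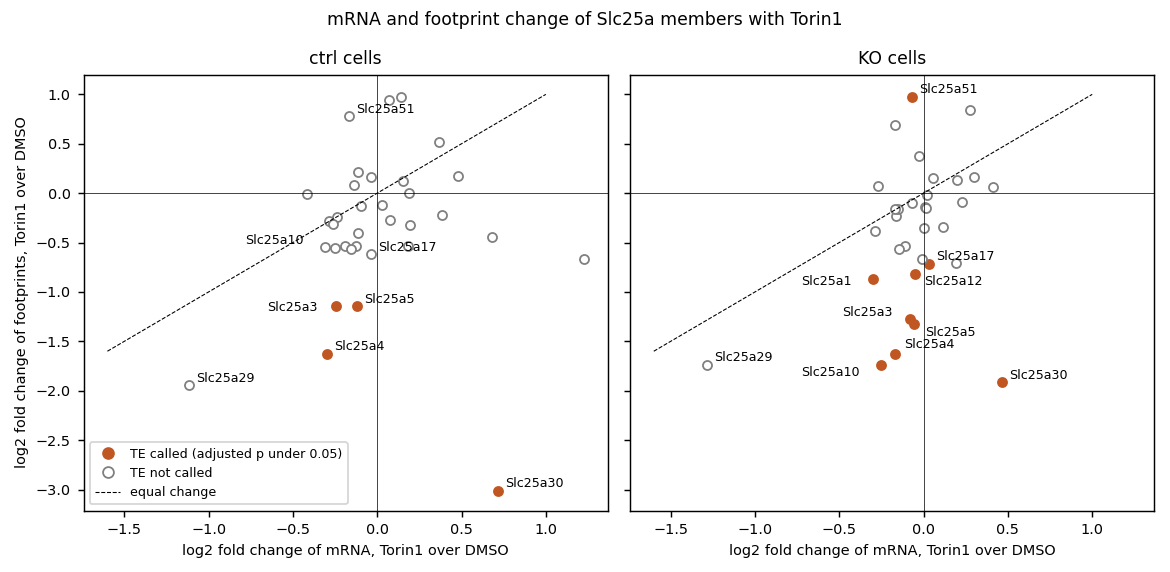
log2 fold change of mRNA (horizontal) and of footprints (vertical) with Torin1 for the members tested in both assays, in ctrl and KO cells. The dashed line marks equal change, and orange points are TE calls. Slc25a30 lies at +0.72 and -3.01 in ctrl and at +0.47 and -1.91 in KO cells.

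By role, the 6 carriers of ATP, ADP and phosphate had 3 TE decreases in each genotype (4.29% of all transcripts were called lower in ctrl and 17.8% in KO cells), Slc25a3, Slc25a4 and Slc25a5, and the median TE change was -0.74 in ctrl and -0.78 in KO cells. The ATP-Mg/phosphate carriers Slc25a23, Slc25a24 and Slc25a25 were not called in TE in either. Of the 4 carriers of iron and glutathione (Slc25a28, Slc25a37, Slc25a39 and Slc25a40) none was called in any readout, and their median TE change was +0.05 in ctrl and -0.01 in KO cells. For Slc25a39 the TE change in KO cells was +0.02 (95% CI -0.36 to 0.40). The 6 amino acid carriers had 1 TE decrease, Slc25a12 in KO cells, and medians of +0.08 and -0.33. The 9 tested carriers of cofactors, nucleotides and acyl groups had 1 decrease and 1 increase in KO cells, Slc25a17 and Slc25a51, and none in ctrl cells. Among all transcripts 10.6% were called higher in TE in KO cells.

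Transporters of the mitochondrial membranes with other gene symbols were counted beside the members. Among them were Ucp2 and Mtch1, which belong to the SLC25 family but are not members by symbol. Of 17 tested, 2 were called lower in TE in ctrl and 7 in KO cells, and none higher, where 4.29% and 17.8% of all transcripts were called lower. Mtch1, an outer membrane relative of the carriers, fell by 1.68 (SE 0.200, edgeR adjusted p = 7.90e-06) in ctrl and by 2.00 (SE 0.166, edgeR adjusted p = 7.05e-10) in KO cells, and the outer membrane channel Vdac1 by 1.21 (adjusted p = 3.51e-05) and 1.30 (adjusted p = 1.10e-09). Of 15 components of the import path of carriers, 1 was called lower in ctrl cells (Tomm22, -0.82, adjusted p = 0.0344) and 3 in KO cells, with 1 higher against 10.6% of all transcripts. Tomm40, the pore of the outer membrane translocase, fell by 1.44 in KO cells (adjusted p = 3.25e-07), and the small intermembrane chaperone Timm10 rose by 0.81 (adjusted p = 0.000415).

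At the mRNA level Torin1 moved few carriers. In ctrl cells 1 of 35 members was called, against 2.73% of all transcripts. It was Slc25a30, on whose ctrl values the family was selected, so that this call is a description only. In KO cells 5 of 35 were called against 9.97%, 3 lower against 3.74% and 2 higher against 6.23%. Slc25a25, an ATP-Mg/phosphate carrier, rose by 0.41 (SE 0.0798, edgeR adjusted p = 0.00825), from 44.9, 42.8 and 44.9 CPM to 57.1, 62.9 and 55.8 CPM. Slc25a30 was the other increase. Slc25a33 fell by 0.27 (adjusted p = 0.0236), from 134, 142 and 136 CPM to 115, 115 and 109.5 CPM, and Slc25a1 by 0.30 (adjusted p = 0.0483), from 173, 203 and 166 CPM to 151, 152 and 136 CPM. Slc25a29, a carrier of basic amino acids, fell by 1.28 (adjusted p = 0.0173), from 2.98, 2.15 and 1.54 CPM to 1.05, 0.839 and 0.817 CPM, but it passed the filter only through its DMSO libraries and so had to be lower with Torin1. Without KO Torin1 replicate 2 none of the 5 was called, and the calls of Slc25a30, Slc25a33 and Slc25a1 were also lost without KO DMSO replicate 1 and without KO Torin1 replicate 1 or 3. That of Slc25a29 was also lost without KO DMSO replicate 1 and without KO Torin1 replicate 3, and those of Slc25a30 and Slc25a1 with library sizes alone. With the block on passage 4 members were called in ctrl cells (background 12.1%), adding Slc25a27 (+1.20, adjusted p = 0.00427), Slc25a29 (-1.12, adjusted p = 0.0128) and Slc25a33 (-0.41, adjusted p = 0.0269). Of these, Slc25a27 passed the filter only through its Torin1 libraries and Slc25a29 only through its DMSO libraries, so that their directions were set by the filter.

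KO cells were then compared with ctrl cells at each treatment. In DMSO no member was called by edgeR in mRNA (34 tested, background 0.0183%), footprints (33 tested, background 0.0279%) or TE (33 tested, background 0%), and DESeq2 called 0 in each. At an unadjusted p under 0.05 there were 2 members in mRNA (background 5.91%), 1 in footprints (7.9%) and 2 in TE (4.07%). Slc25a4 footprints differed by -0.14 (95% CI -0.44 to 0.16) and Slc25a3 footprints by -0.21 (95% CI -0.50 to 0.09). With the block, Slc25a27 mRNA was called higher (+1.00, adjusted p = 0.0280), from 19 to 29 counts in ctrl and 26 to 64 in KO libraries, where 7.93% of all transcripts were called. It passed the filter only through its KO libraries and so had to be higher there.

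In Torin1, 3 of 33 members had fewer footprints in KO than in ctrl cells, against 6.03% of all transcripts called and 4.01% called lower. These were Slc25a10 at -1.02 (SE 0.305, edgeR adjusted p = 0.0334), Slc25a11 at -0.51 (SE 0.151, edgeR adjusted p = 0.0317) and Slc25a3 at -0.32 (SE 0.0978, edgeR adjusted p = 0.0410). Slc25a10 was at 8.37, 8.62 and 6.29 CPM in KO against 13.7, 15.7 and 18.2 CPM in ctrl cells. Slc25a11 was at 52.9, 46.5 and 49.1 against 74.5, 75.9 and 61.9 CPM, and Slc25a3 at 417, 419 and 419 against 558, 508 and 499 CPM. The groups did not overlap for these 3 carriers. The calls were close to the threshold: Slc25a3 was lost in all 6 fits that left out a library, Slc25a10 in 5 and Slc25a11 in 4, and DESeq2 called 1 member, Slc25a3 (background 3.91%), and gave no adjusted p for Slc25a10.

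**Figure D5:**
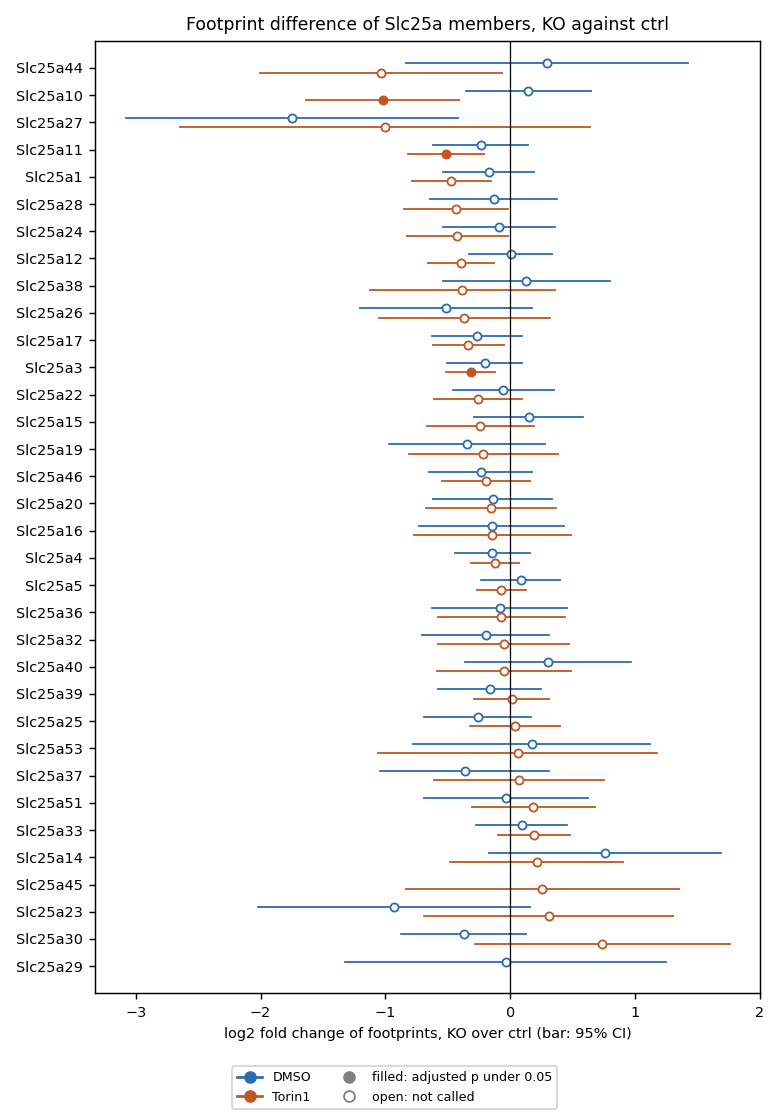
log2 fold change of footprints in KO over ctrl cells for each carrier tested, in DMSO and in Torin1. Bars are 95% confidence intervals and filled points are calls. No carrier is called in DMSO, and in Torin1 Slc25a10, Slc25a11 and Slc25a3 are called lower.

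In the same comparison no member was called by edgeR in mRNA (34 tested, DESeq2 0, background 1.96%) or in TE (33 tested, background 2.85%). At an unadjusted p under 0.05 there were 4 members in mRNA (background 17.8%) and 6 in TE (16.9%). DESeq2 called 3 members lower in TE, Slc25a12, Slc25a11 and Slc25a3 (background 4.81%). Slc25a12 was at -0.42 in TE (95% CI -0.68 to -0.17, edgeR adjusted p = 0.0571), Slc25a11 at -0.46 (adjusted p = 0.0743) and Slc25a10 at -0.84 (95% CI -1.39 to -0.29, adjusted p = 0.0859). With the block on passage Slc25a12 and Slc25a11 were called in TE (adjusted p = 0.0407 and 0.0427, background 5.15%), and Slc25a1 was called lower in mRNA (-0.16, adjusted p = 0.0290, background 9.46%). The genotype by Torin1 interaction called no member in mRNA, footprints or TE by edgeR or DESeq2, against a background of 0% for mRNA and TE and 0.113% for footprints by edgeR. At an unadjusted p under 0.05 there was 1 member in mRNA (background 0.975%), 3 in footprints (6.86%) and 3 in TE (5.74%).

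In the list of other mitochondrial transporters, KO against ctrl in Torin1 gave 1 call in mRNA. It was Ucp2 (-0.24, edgeR adjusted p = 0.0288), an inner membrane protein of the SLC25 family that is not a member by symbol. Footprints gave 1 call (Mpc2, a subunit of the pyruvate carrier, -0.59, edgeR adjusted p = 0.0258). TE gave 2, Ucp2 (+0.80, edgeR adjusted p = 0.0244) and the calcium uniporter Mcu (-0.75, edgeR adjusted p = 0.0494). In the import path of carriers Tomm40 was lower in footprints (-0.88, adjusted p = 0.000341) and in TE (-0.78, adjusted p = 0.00652). In DMSO neither list had a call.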

How the data were processed

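Reads were mapped by the authors (HISAT2, mm10, then bowtie2 on canonical Ensembl transcripts). The authors deposited counts per CDS without normalization, in a file per assay and pair of conditions. A ribo-seq count is a P-site assigned with riboWaltz. The tables also hold the authors' fold changes and p-values, and further tables hold their TE comparison, which were not used. The mRNA counts of KO and ctrl in DMSO were taken from the Torin1 tables, because in the direct comparison 2 columns per genotype carry the same header. In all, 6 sample columns were not used. Ctrl DMSO ribo-seq replicate 2 was not analysed here.

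Transcripts were kept if every library of at least 1 condition had a CPM above 1, and were tested with edgeR 4.0.16 in R 4.3.3 (TMM, quasi-likelihood F-test, Benjamini-Hochberg adjustment, threshold 0.05). TE was the interaction of assay with condition in 1 model of both assays, and the genotype by Torin1 interaction used all 4 conditions. The fits were tested on simulated data with 200 changed transcripts. Of these, 163 were recovered for TE with Torin1 in KO and 87 in ctrl cells, and 48 for the TE interaction. False calls were 10, 4 and 2 in that order. All planted changes had the same size, all transcripts the same dispersion, and changes were placed only above a floor of expected counts. Recovery of smaller changes or of weaker carriers was not tested. Alternatives were DESeq2 1.42.0, library sizes alone, no CPM filter, 1 fit of all conditions, a block on passage and leaving out each library. Sequence features came from GENCODE vM21 and RefSeq promoters on GRCm38 (Python 3.11.15, Biopython 1.88, pandas 2.3.3, numpy 2.4.6, scipy 1.17.1, matplotlib 3.10.9).

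The members and lists were chosen with earlier results of these data known. The text names every called member (12 at most, otherwise the 6 largest changes each way), library values for those called in 2 readouts or with the largest change, the 6 highest and 3 lowest levels, and up to 3 called genes of each further list.

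Per the labels each replicate is another passage of the cells. Libraries of the same number were paired only in the block on passage, and the main fits left the pairing out. With condition means subtracted, r between libraries of the same number in different conditions was -0.0423 to 0.737 in RNA-seq (other pairs -0.589 to 0.431) and -0.0395 to 0.141 in ribo-seq (other pairs -0.141 to 0.117). Between DMSO and Torin1 in RNA-seq, same-number r was above that of other pairs. It was 0.0582 to 0.234 in ctrl (others -0.269 to 0.0530) and 0.165 to 0.237 in KO cells (others -0.157 to -0.0473). In ribo-seq it was also above in ctrl cells, 0.124 to 0.141 (others -0.141 to 0.00150). The ranges overlapped for ribo-seq in KO cells, -0.00387 to 0.106 (others -0.104 to 0.0455), and between genotypes at each treatment. The authors did not use the block, so it is an alternative here. For mRNA the block raised the transcripts called from 299 to 1328 with Torin1 in ctrl cells and from 1097 to 1797 in KO cells. For KO against ctrl they rose from 2 to 866 in DMSO and from 216 to 1041 in Torin1, and the mRNA interaction stayed at 0. P-values measure the spread between passages of 1 cell line. In the genotype comparisons the replicates are passages of a KO and of a ctrl population. Loss of Eif4e3 and other differences between these populations cannot be told apart.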

Additional observations from a re-analysis of the deposited data

How the results depend on the processing

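The counts of members called for footprints and TE with Torin1 stayed within 1.5 times under every alternative run, with 4 to 6 footprint calls in ctrl cells when a library was left out, 10 to 12 in KO cells, and 4 to 5 and 9 to 11 TE calls. Over all 15 counts, 179 alternative values stayed within that range and 31 did not, and no called change turned its direction. For mRNA with Torin1 in ctrl cells (1 call) the count was 0 with library sizes alone and without the CPM filter, 3 with DESeq2, 4 with the replicate block, 6 with all 4 conditions in 1 fit, and 0 to 4 when a library was left out, the 4 without ctrl DMSO replicate 3. For mRNA in KO cells (5 calls) it was 3 with library sizes alone, 2 with all conditions in 1 fit, and 0 to 5 when a library was left out, 0 without KO Torin1 replicate 2. For footprints of KO against ctrl in Torin1 (3 calls) it was 1 with DESeq2 and with all conditions in 1 fit, and 0 to 2 when a library was left out, 0 without KO Torin1 replicate 2 or 3. For TE there (0 calls) it was 1 with library sizes alone, 3 with DESeq2 and 0 to 1 when a library was left out.

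With the replicate block on passage, the comparison of genotypes called 1 member in mRNA under DMSO, 1 in mRNA under Torin1 and 2 in TE under Torin1, each from 0. It called 6 footprints and 4 TE changes with Torin1 in ctrl, and 11 and 11 in KO cells, lost none of the calls made without it, and changed no call beyond those given beside the results. DESeq2 gave no adjusted p for Slc25a30 footprints in ctrl cells, which are given as a description. The cause of these differences was not tested. Depth limits the weaker carriers: in the shallowest ribo-seq library the median member had 16 counts.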
